A study of Mus musculus with 2 samples.

Results

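Sox4, Sox11, Sox12, Sox5 and Sox13 are 5 Sox transcription factor genes grouped here as Sox factors in T-cell development, and they were chosen by name out of 21755 protein-coding genes annotated on chromosomes 1 to 19 and X. Their chromatin was read by DNase-seq, which treats nuclei with DNase I and sequences the ends left by the enzyme, so that accessible stretches appear as peaks of cutting. The tissue was whole thymus from female mice aged 10 days of the hybrid strain B6CASTF1/J, which carry a C57BL/6J and a CAST/EiJ set of chromosomes and no engineered allele or treatment that the labels name. The 2 libraries form 1 group of biological replicates, with no control group. The labels number the females separately (05 and 06) and give both the same donor identifier, so the spread between replicates may not be that of unrelated animals. No test between groups was possible, and every value below is a description of these 2 libraries.

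SOX proteins bind the minor groove of DNA through a conserved HMG box and bend it, preferring letters close to ACAAAG. The SoxC genes Sox4, Sox11 and Sox12 encode activators with a transactivation domain at the C-terminus. The SoxD genes Sox5, Sox6 and Sox13 encode proteins that lack such a domain and dimerize through a coiled coil, so they act together with partner proteins. In the thymus, Sox4 is known for its role in early lymphocyte development, and Sox13 marks and supports gamma-delta T cells, Sox4 and Sox13 both being needed for those that make interleukin-17.

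Sox4 stood apart from the other members. It had the highest promoter peak of the 5 genes, the densest surroundings of distal open regions, and a region about 6 kb upstream that was as high as the promoter itself. Sox12 had a promoter peak close to the typical promoter of the tissue. At the starts of their coding transcripts Sox5 had no peak in either replicate and Sox13 had a low one in replicate 1 alone, and the high peak within Sox13 lay in an intron. Sox11 had almost no peak in the gene or within 200 kb of it.

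The sequences of the main regions are printed on the minus strand, on which all 5 genes are transcribed, from 5′ to 3′, from the GRCm38.p6 assembly (mm10). They are letters of that reference, and any that differ in the C57BL/6J or CAST/EiJ chromosomes of these mice were not read. Capitals mark bases inside a footprint in both replicates. A footprint is a short stretch within cut chromatin that the authors listed as protected from cutting. The part of the Sox4 promoter peak upstream of the start and the next highest region of the locus show that both carry several footprints that recurred, and the intronic Sox13 region and the distal Sox5 region are the highest of their loci, by mean height over the library medians, outside the promoters of neighbouring genes.
Sox4 promoter, chr13:28953714-28953900, minus strand: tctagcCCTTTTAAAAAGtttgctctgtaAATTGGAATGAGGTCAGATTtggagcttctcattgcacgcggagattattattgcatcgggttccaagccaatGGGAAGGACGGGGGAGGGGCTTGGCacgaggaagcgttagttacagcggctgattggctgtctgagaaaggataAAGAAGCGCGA
Sox4 region 6.06 kb upstream, chr13:28959621-28959920, minus strand: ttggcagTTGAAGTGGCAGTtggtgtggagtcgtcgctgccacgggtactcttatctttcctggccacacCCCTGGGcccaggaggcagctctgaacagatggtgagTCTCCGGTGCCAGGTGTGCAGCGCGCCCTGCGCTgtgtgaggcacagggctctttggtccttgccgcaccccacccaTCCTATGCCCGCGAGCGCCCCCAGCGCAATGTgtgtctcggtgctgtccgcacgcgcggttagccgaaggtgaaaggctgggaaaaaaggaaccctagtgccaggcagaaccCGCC
Sox4 region 4.27 kb upstream, chr13:28957881-28958080, minus strand: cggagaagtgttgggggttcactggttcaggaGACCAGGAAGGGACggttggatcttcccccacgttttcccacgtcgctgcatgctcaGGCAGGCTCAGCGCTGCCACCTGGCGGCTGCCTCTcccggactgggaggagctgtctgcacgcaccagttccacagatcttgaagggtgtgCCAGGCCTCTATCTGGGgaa
Sox12 promoter, chr2:152398121-152398320, minus strand: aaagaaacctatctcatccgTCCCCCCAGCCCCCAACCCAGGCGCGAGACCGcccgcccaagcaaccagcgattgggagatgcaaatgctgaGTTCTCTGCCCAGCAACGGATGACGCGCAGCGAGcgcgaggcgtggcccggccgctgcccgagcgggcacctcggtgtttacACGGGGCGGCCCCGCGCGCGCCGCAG
Sox13 intronic region, chr1:133385581-133385780, minus strand: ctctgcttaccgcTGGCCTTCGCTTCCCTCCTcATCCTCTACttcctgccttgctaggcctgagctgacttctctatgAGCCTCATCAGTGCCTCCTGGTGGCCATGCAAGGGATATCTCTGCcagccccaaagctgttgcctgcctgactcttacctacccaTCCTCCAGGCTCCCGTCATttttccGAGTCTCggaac
Sox5 region 120.8 kb upstream, chr6:144902621-144902880, minus strand: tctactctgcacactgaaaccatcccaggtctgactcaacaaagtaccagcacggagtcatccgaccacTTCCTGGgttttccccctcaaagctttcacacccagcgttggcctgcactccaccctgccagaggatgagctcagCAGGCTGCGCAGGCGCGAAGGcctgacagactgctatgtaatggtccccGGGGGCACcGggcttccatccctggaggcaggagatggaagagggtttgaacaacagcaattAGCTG
The counterpart at Sox11 is the 250 bases before the start that RefSeq gives on GRCm38.p6, shown because the stretch is rich in CpG yet held only a peak of 49 bp in replicate 2, marked here by capitals.
Sox11 upstream stretch, chr12:27342719-27342968, minus strand: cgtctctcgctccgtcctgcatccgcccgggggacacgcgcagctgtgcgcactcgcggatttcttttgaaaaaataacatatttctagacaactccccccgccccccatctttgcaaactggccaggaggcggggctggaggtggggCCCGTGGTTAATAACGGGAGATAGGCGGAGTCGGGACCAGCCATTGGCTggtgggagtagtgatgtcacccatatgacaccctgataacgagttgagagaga

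The libraries differed in how much was called. Replicate 1 had 132737 peaks and replicate 2 had 69798, and read numbers are not given in the sources used here. Peak height is the authors' signal value, a whole multiple of a fixed step in each library. The step was nearly the same in both (0.005791 and 0.005793), and the median peak stood at 108 steps in replicate 1 and 143 in replicate 2. Heights are therefore also given as multiples of the library's own median, 0.625 and 0.828 in deposited units. The tissue label was checked against markers: 10 of 10 thymocyte genes (among them Cd3e, Rag1 and Ptcra) had a promoter peak in both replicates, at a median of 9.72 and 6.58 times the library median. Of the markers of other cells, 4 of 8 thymic epithelial, 3 of 8 fibroblast, 2 of 6 endothelial, 1 of 5 B cell, 3 of 4 myeloid, 1 of 4 erythroid and 3 of 4 neuronal genes had a promoter peak in both. The epithelial gene Foxn1 and the endothelial gene Cdh5 had none in either, while the epithelial genes Ccl25 (12.5 and 8.64 times the library median) and Aire (8.32 and 5.35) and the endothelial gene Pecam1 (7.09 and 2.41) had high ones. The median of the epithelial list was 0.602 and 0.587, and those of the other lists lay between 0 and 1.19 in replicate 1 and between 0 and 1.09 in replicate 2. In a bulk tissue, fewer cells of a type and less open chromatin per cell cannot be told apart.

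A promoter peak was a peak with at least 1 bp within 500 bp of an annotated start of the gene. Of all protein-coding genes, 63.9% had such a peak in replicate 1, 58.3% in replicate 2 and 57.7% in both. Of the 5 Sox genes, 4 had one in replicate 1 and 5 in replicate 2, and 4 had one in both. Among all genes with a promoter peak the median height was 6.88 times the library median in replicate 1 and 4.92 times in replicate 2.

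Sox4 (ENSMUSG00000076431.4, chr13:28948919-28953713, minus strand) is a gene of 4795 bp with 1 annotated start. Its promoter peak was 10.0 high in replicate 1 and 11.1 in replicate 2 in deposited units. This was 16.0 and 13.4 times the library median, or 14.7 ± 1.83 (SD, n = 2). The lower of these values lay above the values of the other 4 genes in either replicate. Of all coding genes, 92.3% and 93.4% were lower than Sox4, genes without a promoter peak being counted as lower. Of the 4 genes with a peak in both replicates, only Sox4 had the higher one in replicate 2 in deposited units, with a ratio of 1.11 against a median of 0.903 over all genes with a promoter peak in both replicates (quartiles 0.735 and 1.08).

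Sox12 (chr2:152393611-152398063, minus strand), a SoxC gene whose product is a weaker activator than SOX4, had a promoter peak centred 0.158 kb upstream of its 5′ start. The peak was 5.27 high in replicate 1 and 4.04 in replicate 2. Over the library median this was 8.43 and 4.88, or 6.65 ± 2.51 (SD, n = 2). Of coding genes, 73.1% and 70.7% were lower, those without a promoter peak included. Among genes with a promoter peak, the value lay above the median in replicate 1 and just below it in replicate 2.

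Sox11 (chr12:27334264-27342574, minus strand), the SoxC gene best known from neurons, had no promoter peak in replicate 1. In replicate 2 a peak of 49 bp with a height of 0.295, or 0.357 times the library median, lay 0.222 kb upstream of the start. That peak was absent from the smaller of the authors' peak files for the library. Within the SoxC group the values of Sox4, Sox12 and Sox11 thus did not overlap between genes, with every replicate in the same order.

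Sox5 (chr6:143828425-144781977, minus strand), a SoxD gene known for cartilage formation, had a peak of 0.701 in replicate 1 and 0.521 in replicate 2 near its 5′ end, or 1.12 and 0.629 times the library median. That end belongs to non-coding transcripts. The 7 coding starts of Sox5 lie 572 to 835 kb further downstream, and none had a peak in either replicate. The Sox5 values lay below the library-wide promoter median in both replicates and above those of Sox11.

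Sox13 (chr1:133382303-133424377, minus strand), the SoxD gene tied to gamma-delta T cells, had a peak of 5.35 in replicate 1 and 3.04 in replicate 2 within 500 bp of an annotated start, or 8.56 and 3.66 times the library median (6.11 ± 3.46, SD, n = 2). This range overlapped that of Sox12. The peak is the intronic region printed above: the start beside it belongs to a retained-intron transcript without a coding sequence, 38.9 kb downstream of the 5′ end of the gene. At the 5′ end, where a coding transcript starts, replicate 1 had a peak of 0.666, which is 1.06 times the library median, and replicate 2 had none. The ratio of replicate 2 to replicate 1 for the intronic peak was 0.567, and 8.96% of genes with a promoter peak in both replicates had a lower ratio.

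Counted at the starts of coding transcripts alone, a peak was present at 62.4% of genes in replicate 1 and 57.1% in replicate 2. By this count 3 of the 5 Sox genes had a peak in replicate 1 (Sox4, Sox12 and Sox13) and 3 in replicate 2 (Sox4, Sox12 and Sox11). Only Sox4 and Sox12 had one in both. This way of counting was added after the values were seen, and it moved Sox13 from 6.11 to 0.532 times the library median on average and Sox5 from 0.875 to 0.

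**Figure D1:**
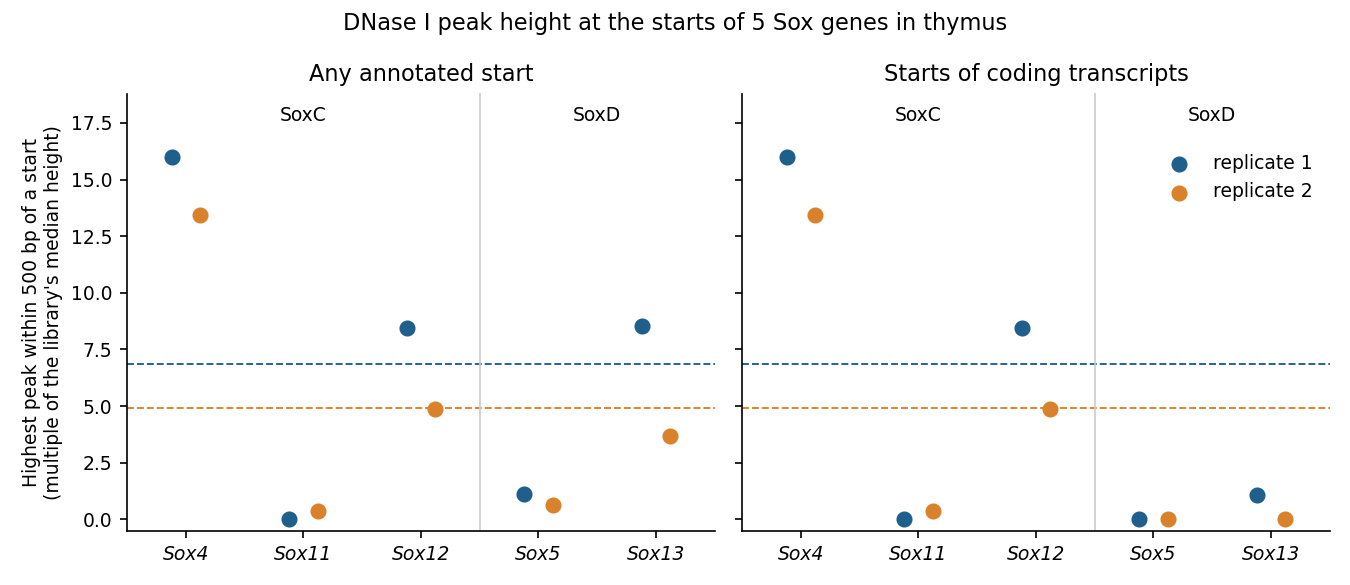
Highest peak within 500 bp of a start of each gene, as a multiple of the library's median peak height, for any annotated start (left) and for starts of coding transcripts (right); each point is 1 replicate, 0 means no peak, and the dashed lines are the medians over all coding genes with a peak at any start, 6.88 in replicate 1 and 4.92 in replicate 2. Sox4 stands at 16.0 and 13.4 in both panels, while Sox13 falls from 8.56 and 3.66 on the left to 1.06 and 0 on the right.

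The RefSeq promoter windows, 250 bases before to 50 after the start, were matched for 5 of the 5 genes. Windows with at least 50% G and C and an observed over expected CpG ratio of at least 0.6 were called CpG-rich, and 85.5% of such windows held a peak in replicate 1 and 82.4% in replicate 2. The windows of Sox4, Sox11, Sox12 and Sox13 were CpG-rich and that of Sox5 was not, at 39.7% G and C and a ratio of 0.256. The Sox5 window lay at the coding starts 835 kb downstream of the 5′ end, so the other Sox5 starts were not covered. Of the 4 CpG-rich windows, those of Sox4 and Sox12 held a peak in both replicates, that of Sox11 held one in replicate 2 and that of Sox13 held none. The Sox13 window was nevertheless among the richer ones, with 73.3% G and C and more CpG than 94.0% of all windows.

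The surroundings of each gene were read over the gene body plus 200 kb on each side. Peaks that shared at least 1 bp were joined into regions, and a region was distal when it lay over 1 kb from every start of a coding gene. Over the loci of all coding genes, drawn the same way, the median was 5.18 distal regions per 100 kb in replicate 1 and 2.32 in replicate 2.

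The Sox4 locus held 66 distal regions in replicate 1 and 30 in replicate 2, or 16.3 and 7.41 per 100 kb (11.9 ± 6.29, SD, n = 2). Of all loci, 98.3% and 94.8% were less dense. The Sox13 locus had 50 and 25 distal regions, or 11.3 and 5.66 per 100 kb, denser than 89.8% and 87.0% of loci. The values at Sox12 were 28 and 15, or 6.92 and 3.71 per 100 kb, above 65.9% and 70.9% of loci. At Sox13 and Sox12 these counts include regions nearer to a start of another coding gene.

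The other 2 loci were sparse. Sox5 had 58 and 14 distal regions, but over a locus of 1354 kb, which gives 4.29 and 1.03 per 100 kb, more than 41.0% and 28.9% of loci. Sox11 had 2 in either replicate, or 0.490 per 100 kb, more than 6.58% and 17.8% of loci. The genes kept the order Sox4, Sox13, Sox12, Sox5, Sox11 in each replicate taken alone, although the range over replicates of each gene except Sox11 overlapped that of its neighbour in the order, since replicate 2 had fewer peaks overall.

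**Figure D2:**
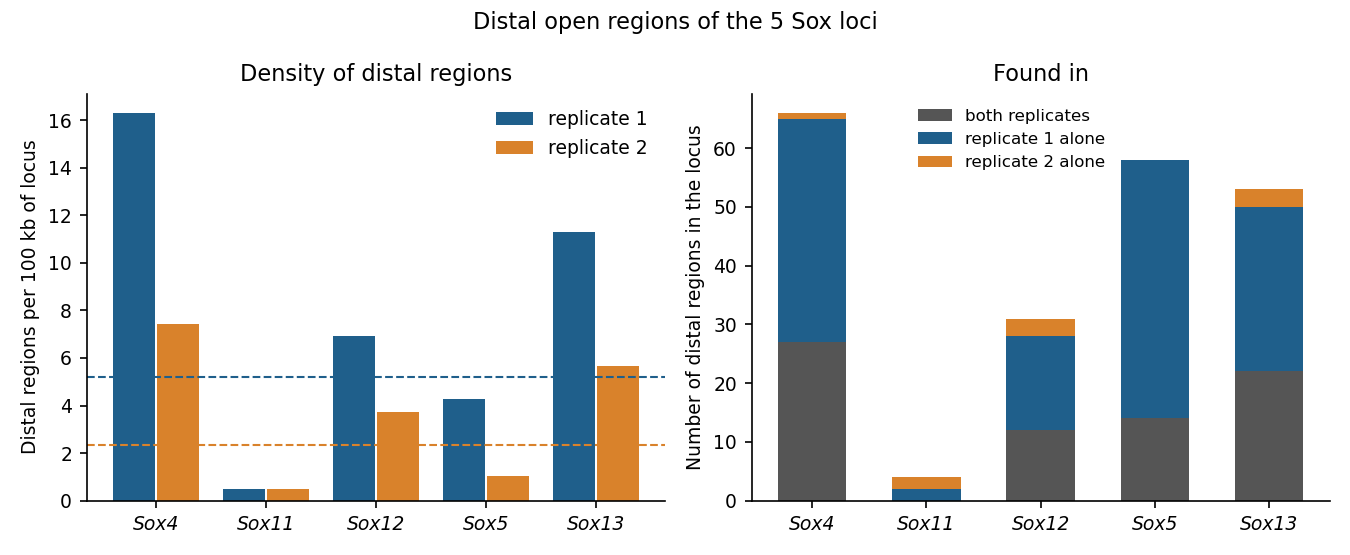
Left, distal regions per 100 kb of each locus in replicates 1 and 2 (bars), with the median over all coding-gene loci in each replicate (dashed lines, 5.18 and 2.32); right, the number of distal regions found in both replicates or in 1 of them. Sox4, Sox13 and Sox12 lie above the median of the matching replicate, and 27 of the 66 Sox4 regions were found in both.

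The regions found in both replicates are those that do not rest on a single library. Over the genome 33.0% of distal regions were found in both replicates. The share was 27 of 66 at Sox4 (40.9%), 22 of 53 at Sox13 (41.5%), 12 of 31 at Sox12 (38.7%), 14 of 58 at Sox5 (24.1%) and 0 of 4 at Sox11. Over all 5 loci it was 75 of 212, or 35.4% (95% Clopper-Pearson interval 29.0% to 42.2%, for counting error only). With equal numbers of peaks taken from each library, the share was 57.8% over the 5 loci and 54.3% over the genome.

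The regions seen in replicate 1 alone were lower than the shared ones. At Sox4 the 27 shared regions had a median height of 1.42 in replicate 1, and the 38 seen in replicate 1 alone had 0.489. At Sox5 the 14 shared regions had a median of 0.623 and the 44 of replicate 1 alone had 0.243. The same order of medians held at Sox12 (1.93 and 0.295) and Sox13 (1.23 and 0.336). With 44 of 58 regions in replicate 1 alone, the Sox5 locus depended most on that library.

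The distal regions of Sox4 were not spread evenly. No other coding gene has a start in this locus. The 50 kb upstream of Sox4 held 19 and 9 distal regions in replicates 1 and 2, and the next 50 kb upstream held 2 and 1. Downstream the regions went on to the edge of the window, with 12 and 6 between 50 and 100 kb and 11 and 7 between 150 and 200 kb. A group of 5 shared regions lay 66.9 to 69.4 kb downstream, and 2 of them lay within 500 bp of a start of the non-coding gene 2610307P16Rik. Of the 27 shared regions, 9 were upstream and 18 downstream.

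The highest distal region of Sox4 was centred 6.06 kb upstream of the start. It was 9.0 high in replicate 1 and 12.1 in replicate 2, or 0.898 and 1.09 times the height of the Sox4 promoter in the same library. As multiples of the library median these values were 14.4 and 14.6, and 99.8% of all distal regions were lower in either replicate. The region was thus below the promoter in replicate 1 and above it in replicate 2.

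Other upstream regions followed closely. The region 4.27 kb upstream was 8.46 and 7.25 high, and the one 4.67 kb upstream was 4.01 and 3.67 high. A region 21.5 kb upstream reached 3.83 and 2.69. Far downstream, a region at 195.8 kb (chr13:28757861-28758060) reached 6.68 and 5.51, above 99.4% and 98.6% of all distal regions. These 5 regions are the highest of the locus found in both replicates, and each was lower in replicate 2 except the one at 6.06 kb.

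Peaks also covered much of the Sox4 gene itself. In replicate 1 they covered 64.9% of its 4795 bp and in replicate 2 48.2%, more than in 99.9% and 99.8% of all coding genes. The median over coding genes was 1.34% and 0.578%. Sox12, nearly as short, was covered over 12.1% and 27.6%, the only member with more in replicate 2. Sox13 was covered over 8.51% and 1.27%, Sox11 over 2.41% and 0%, and Sox5 over 0.857% and 0.138%.

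**Figure D3:**
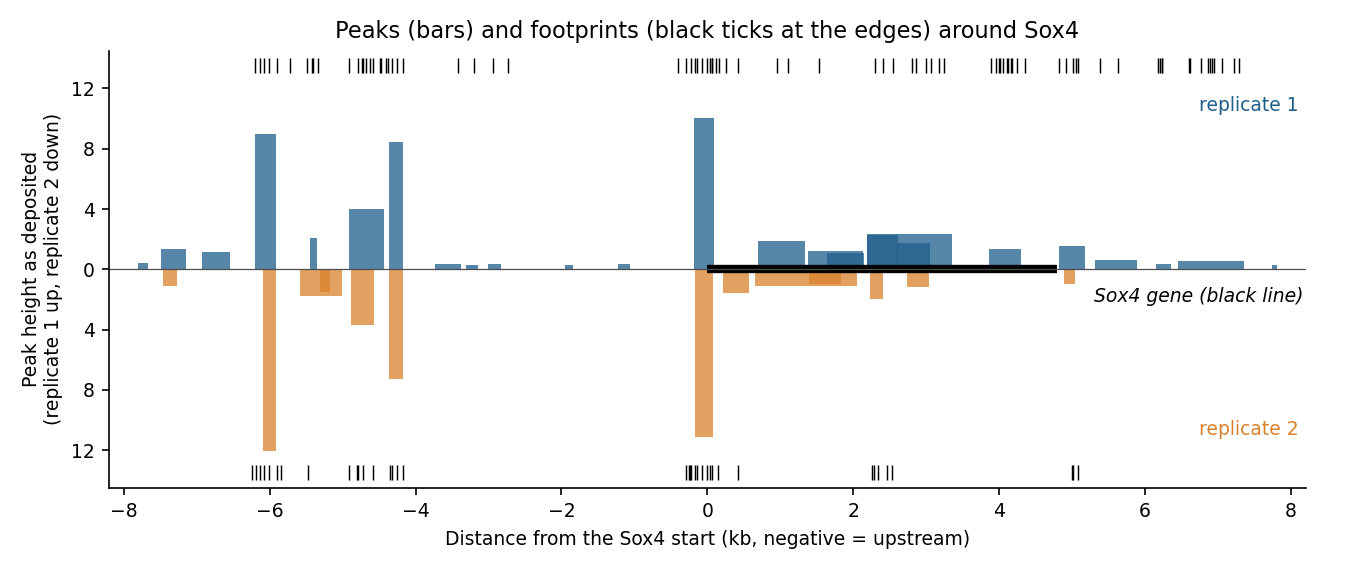
Peaks around Sox4 as bars of their deposited height, replicate 1 upward and replicate 2 downward, against the distance from the start in kb; the thick line is the gene and the black ticks at the top and bottom are footprints of replicates 1 and 2. The promoter (10.0 and 11.1) and the upstream regions at 6.06 kb (9.0 and 12.1) and 4.27 kb (8.46 and 7.25) are the 3 highest in both replicates, and low peaks run along the gene.

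At Sox12 the highest shared distal region was centred 8.24 kb upstream (chr2:152406201-152406400), with heights of 3.40 and 4.29, or 0.645 and 1.06 times the Sox12 promoter. Like the upstream Sox4 region, it was lower than its promoter in replicate 1 and slightly higher in replicate 2. The next ones lay in introns of 6820408C15Rik, at 3.11 and 1.32, and of Nrsn2, at 2.33 and 1.63. The Sox12 locus holds starts of 17 other coding genes. Among them Csnk2a1, for a subunit of casein kinase 2, had a promoter peak of 5.14 and 4.54, and Rbck1 had one of 3.76 and 4.18, both of a height like that of Sox12. Only 5 of the 31 distal regions were nearer to a Sox12 start than to any other coding start.

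At Sox13 the highest shared distal region lay in an intron of Plekha6, 186.4 kb downstream, at 3.38 and 3.04. Another, between genes at -117.8 kb (upstream), reached 3.10 and 2.17, and a further one lay in an intron of the renin gene Ren1 at 2.94 and 1.69, although Ren1 had no promoter peak. The locus holds starts of 8 other coding gene records. Of its 53 distal regions, 24 were nearer to a Sox13 start than to any other coding start. Counting only such regions, the mean density of the replicates was 3.39 per 100 kb instead of 8.48. Snrpe, a core splicing gene, had a promoter peak of 9.05 and 7.80, the highest in that locus. Within the Sox13 gene, 16 distal regions were found in either replicate and 2 in both, so the gene body was open in many small places in replicate 1 that were not called in replicate 2.

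At Sox5 the distal regions exceeded the peak at the 5′ end. The region 120.8 kb upstream reached 3.89 and 3.83, which was 5.55 and 7.34 times the peak at the 5′ end. Another beside it, 121.4 kb upstream, reached 3.71 and 2.92, and a further one, between genes 1031 kb downstream of the 5′ end, reached 3.26 and 2.29. Inside the 953553 bp of the gene, 40 regions were found in either replicate and 6 in both, the highest of them at 1.85 and 0.869. The high Sox5 regions therefore lay outside the gene at both ends, and no other coding gene starts in the locus.

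The 4 distal regions at Sox11 were between 0.133 and 0.272 high. None was found in both replicates, and the highest stood at 0.329 times the library median. The gene shares with Sox4 and Sox5 a locus free of other coding starts.

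**Figure D4:**
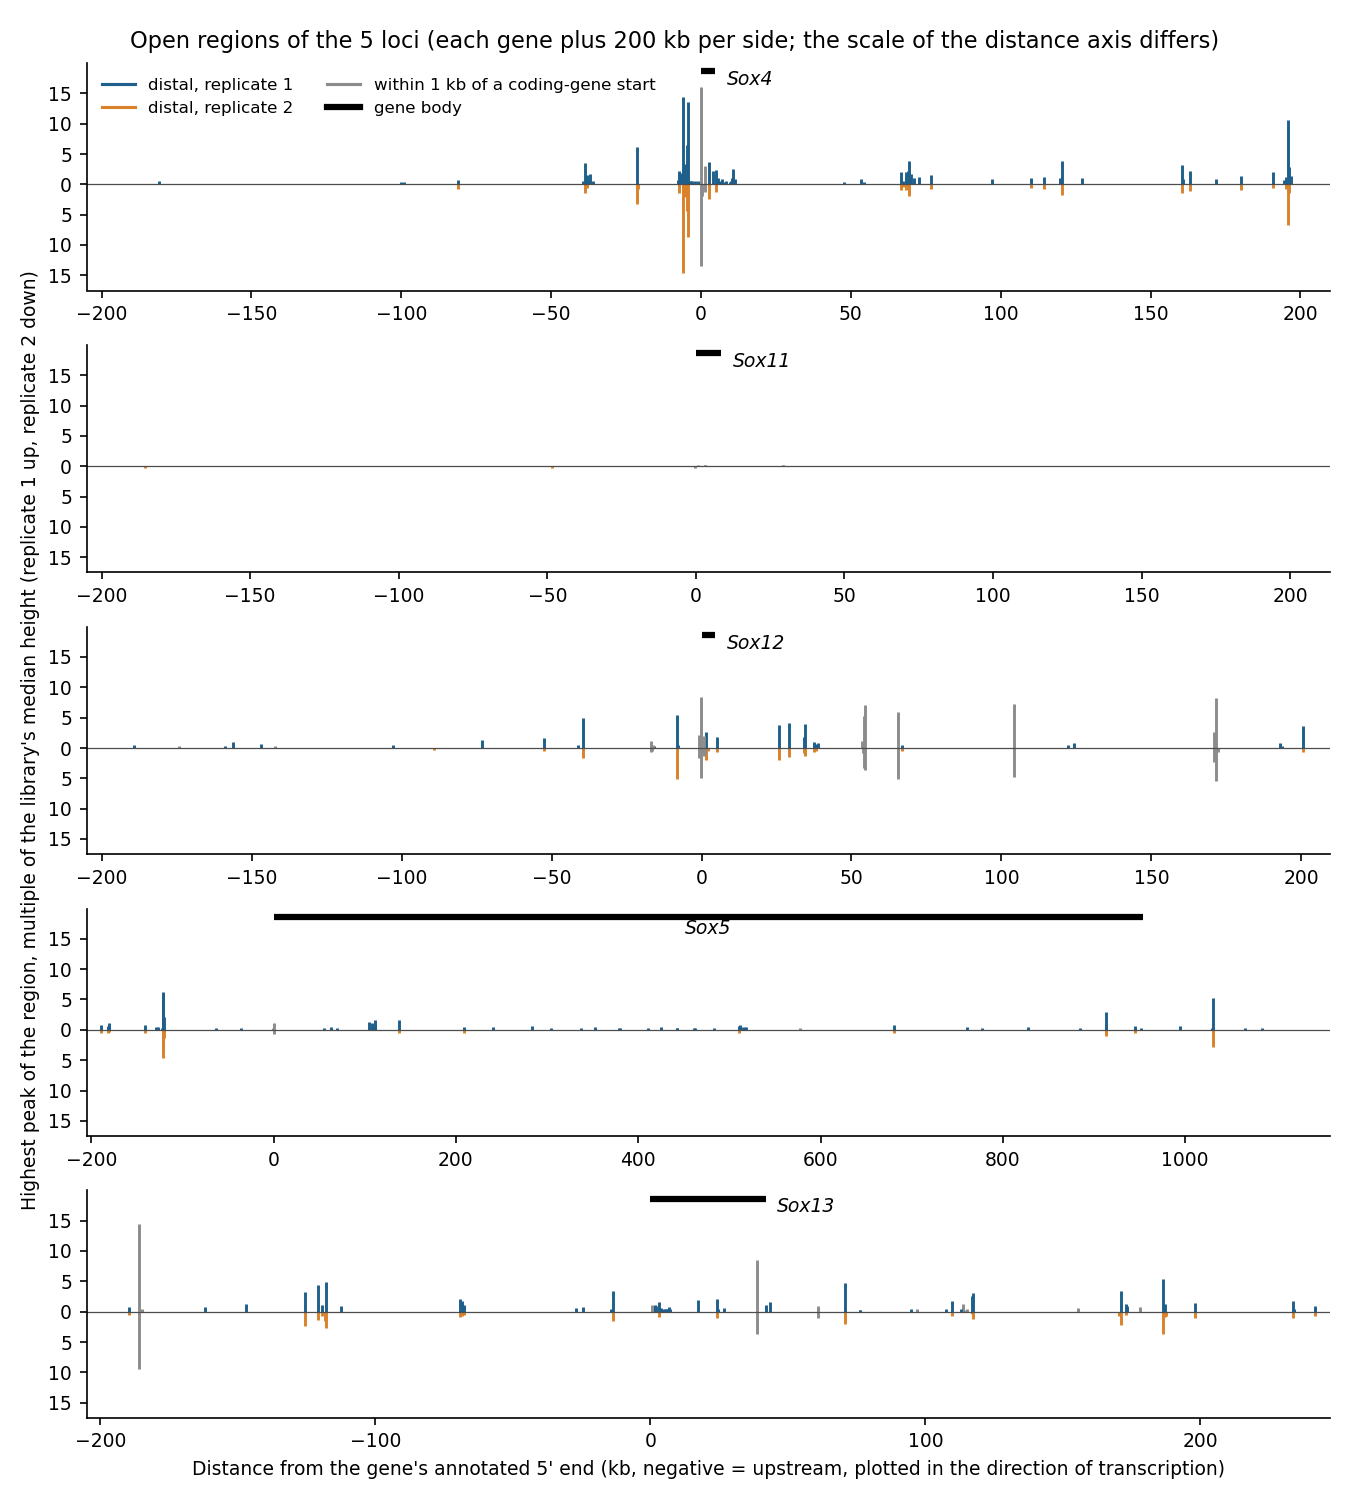
Regions of the 5 loci, each drawn at its distance in kb from the annotated 5′ end of the gene, with the height of its highest peak as a multiple of the library median, replicate 1 upward and replicate 2 downward; grey lines are regions within 1 kb of a start of any coding gene and the black bar is the gene. Sox4 has a cluster just upstream with values up to 14.4 and 14.6, and groups of regions with gaps between them out to the downstream edge. Sox5 has its highest regions 120.8 kb upstream and 1031 kb downstream, and the Sox11 panel is nearly empty.

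The Sox4 locus held 217 footprints in replicate 1, the most of the 5, and 88 in replicate 2, where Sox12 held more. Sox13 held 155 and 80, Sox12 held 142 and 99, Sox5 held 101 and 43, and Sox11 held 1 and 3. Over the loci of all coding genes the median was 25.6 footprints per 100 kb in replicate 1 and 15.1 in replicate 2. Sox4 had 53.6 and 21.7 per 100 kb, above 83.4% and 66.0% of loci, so it ranked lower than by distal regions. Sox13 lay above 64.1% and 57.6% of loci and Sox12 above 64.2% and 71.1%. Sox5, with its longer locus, had 7.46 and 3.18 per 100 kb, and Sox5 and Sox11 lay below both medians. Within 500 bp of the starts, Sox4 had 14 and 12 footprints, so its promoter count was nearly the same in both replicates while that of its locus was not. Sox5 had 5 and 5 there, Sox12 had 3 and 4, Sox13 had 3 and 5, and Sox11 had 0 and 2. These counts pool 12 annotated starts at Sox5, 5 at Sox13 and 2 at Sox12, against 1 at Sox4 and Sox11. Footprints inside peaks had a median width of 8 to 11 bp. In the part of the Sox4 promoter printed above, 68 of 187 bases were inside footprints in both replicates, against 87 in replicate 1 and 72 in replicate 2.

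The share of bases at which the authors' false discovery rate of the cut rate was under 0.05 gave a like picture without peak calls. It was 7.75% and 3.08% of the Sox4 locus, 5.41% and 2.14% at Sox13, 4.74% and 2.73% at Sox12, 1.28% and 0.312% at Sox5 and 0.104% and 0.0593% at Sox11. The genome as a whole stood at 2.10% and 0.915%. Sox4, Sox13 and Sox12 were above the genome in both replicates, and Sox5 and Sox11 were below it.

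Short letters typical of transcription factor families were counted in the footprints inside peaks of the 5 loci, extended by 5 bp per side and read on both strands. The ETS letters AGGAAG were in 28 of 534 footprints in replicate 1 and 14 of 267 in replicate 2 (5.24% in either), against 3.17% and 2.47% of all footprints of the library. The other ETS letters searched, CCGGAAG, were in 0.562% and 0.375%, against 0.860% and 1.31%. The SOX letters ACAAAG were in 10 and 4 footprints (1.87% and 1.5%, against 1.20% and 0.915%). The other SOX letters, ACAATG, were in 5 footprints in replicate 1 (0.936%, against 0.640%) and in none in replicate 2 (against 0.506%). The SP letters GGGCGG were in 3.93% and 8.61%, against 6.03% and 9.48%. The library shares include footprints outside peaks, so the sets compared are not alike. The counts are small, and a match names no bound factor.

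In the printed sequences, AGGAAG lay wholly inside a shared footprint in the Sox4 region 4.27 kb upstream (positions 37 to 42 from the 5′ end). Its other matches had 0 letters inside shared footprints in the Sox4 promoter part, 1 in the Sox13 intronic region and 5 in the Sox5 region. The Sox4 promoter part held the NF-Y letters CCAAT at 3 places on either strand, and 1 of these, at positions 31 to 35, was inside a shared footprint. In the Sox12 promoter the letters GGGCGG at positions 178 to 183 lay inside one, while those at 50 to 55 and 54 to 59 had 3 and 0 letters inside. Matches with 0 letters inside were ACAAAG in the Sox5 region, CCAAT in the Sox12 promoter and the GATA letters AGATAA in the Sox4 region 6.06 kb upstream. Among all RefSeq promoter windows, 37.6% held CCAAT, 35.9% held GGGCGG, 35.2% held AGGAAG and 18.7% held ACAAAG. None of the 5 Sox windows, which cover 1 site per gene, held ACAAAG.

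The CTCF core consensus was added to the search after the printed sequences were seen. A match lay in the Sox13 intronic region at positions 91 to 102, read on the opposite strand (GCCTCCTGGTGG as printed), with 12 of 12 letters inside a footprint shared by both replicates. Within 200 bp around the centre, 19.8% of the 33973 distal regions found in both replicates genome-wide held a match. Of the 75 such regions of the 5 loci, 6 did (8.0%). They were 3 at Sox12, 2 at Sox5 and 1 at Sox13, and none of the 27 at Sox4 matched. The search took only 1 fixed form of the consensus, so sites that depart from it were not counted. In the printed Sox4 region 4.27 kb upstream, a stretch in capitals departs from it by 1 letter, read on the opposite strand. The count therefore does not show that the Sox4 regions lack CTCF sites. The E-box letters CAGCTG, a site of the E proteins of lymphocytes, were in 12 of the 27 Sox4 regions and 23 of the 75 (30.7%), against 20.9% of all. The RUNX letters TGTGGT were in 11 of the 75 (14.7%, against 22.1%), CCAAT in 10 (13.3%, against 18.9%) and AGGAAG in 30 (40.0%, against 36.8%). ACAAAG was in 16 (21.3%, against 16.2%), GGGCGG in 12 (16.0%, against 11.6%) and the TCF letters ATCAAAG in 4 (5.33%, against 3.74%). ACAATG and AGATAA were each in 6 (8.0%, against 7.97% and 7.37%), and CCGGAAG was in 1 (1.33%, against 3.15%). Letters outside footprints were counted too. The E-box letters had the largest share above that of all such regions among the motifs searched, and were named after their values were seen.

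The other Sox genes were read for comparison. Of 14, 10 had a promoter peak in replicate 1 and 6 in replicate 2, and 5 had one in both, beside 63.9%, 58.3% and 57.7% of all coding genes. By the mean of both replicates the highest was Sox6, the remaining SoxD gene, at 5.18 and 1.59 times the library median. It was followed by Sox8 at 2.40 and 1.68, above Sox6 in replicate 2, Sox30 at 1.63 and 1.25 and Sox17, a gene of endothelium and endoderm, at 1.75 and 0.476. Sox3, Sox10 and Sox18 had no promoter peak in either replicate. Each of these 14 genes lay below Sox4 and Sox12 in the same replicate. These heights are for any annotated start, and starts of coding transcripts were not read apart for this list.

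Of 11 genes known from gamma-delta T cells that make interleukin-17, the cells for which Sox4 and Sox13 are required, 7 had a promoter peak in each replicate, a share near that over all coding genes (63.9% and 58.3%). Etv5, for an ETS factor, stood at 13.4 and 14.2 times the library median, below Sox4 in replicate 1 and above it in replicate 2. Maf stood at 8.78 and 5.50, Tcf7, for an HMG box factor of T cells, at 6.47 and 4.27, and its relative Lef1 at 5.13 and 4.76. The cytokine genes Il17a and Il17f and the receptor genes Il23r and Ccr6 had no promoter peak in either replicate. Tcf7 and Lef1 are also used by alpha-beta thymocytes, and whole thymus was not sorted by T cell lineage.

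**Figure D5:**
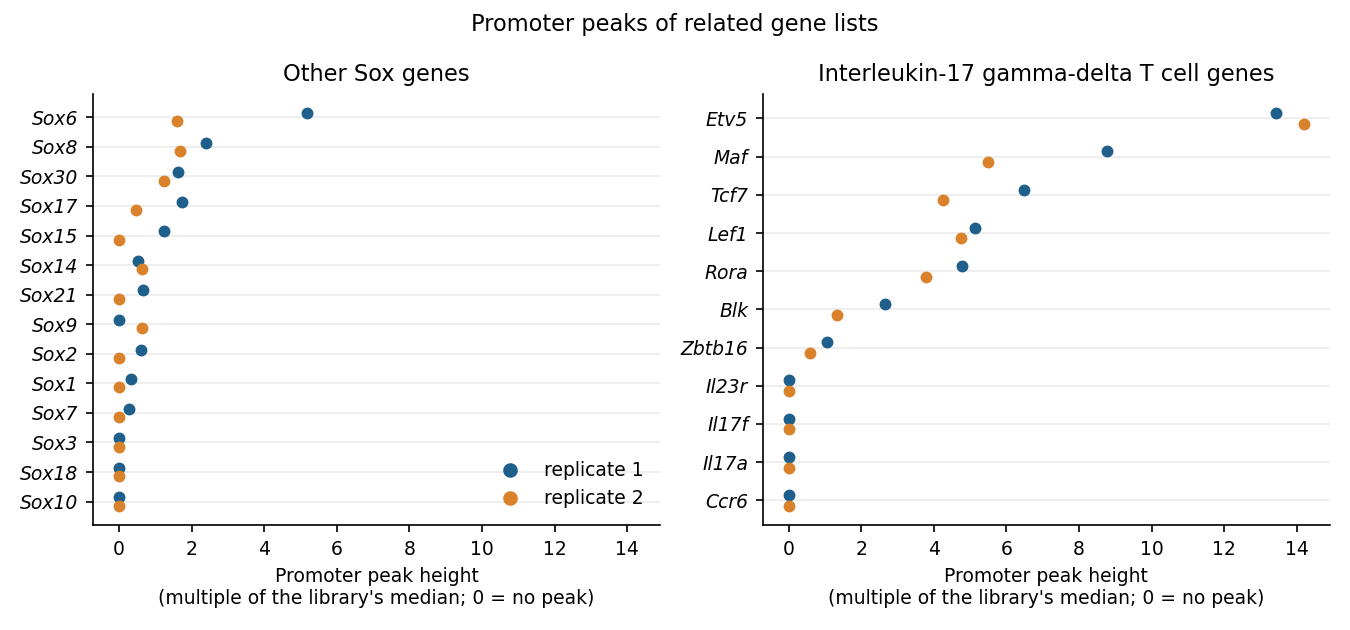
Promoter peak height, as a multiple of the library's median, of 14 other Sox genes (left) and 11 genes of interleukin-17 gamma-delta T cells (right); each point is 1 replicate and 0 means no peak. Sox6 has the highest mean of the left list, at 5.18 and 1.59, although Sox8 is above it in replicate 2 at 1.68, and on the right Etv5 reaches 13.4 and 14.2 while Il17a, Il17f, Il23r and Ccr6 stay at 0.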

How the data were processed

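DNase-seq was carried out on thymus tissue of 1 group of 2 replicates. Peaks, footprints and a false discovery rate of the cut rate were deposited on mm10 (GRCm38) for each library, per the README beside them, and replicates were not pooled. The deposited signal of a peak is its height, and all heights were whole multiples of a fixed step (100% within 0.05 of a step), so the authors scaled each library by a single factor. The deposited FDR values (of the q-value kind) list bases under 0.05, and the footprints carry the constant 0.01, read as the authors' FDR threshold. The sources used here do not give the aligner, the callers, their versions, the scaling factor or any correction for the sequence preference of DNase I.

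The larger of the paired peak files of each library was used, on chromosomes 1 to 19 and X (132683 and 69744 peaks). Genes came from GENCODE M21 and sequence from RefSeq GRCm38.p6, whose chromosome lengths matched. Python 3.11.15 with numpy 2.4.6 and matplotlib 3.10.9 was used, and the interval functions were tested on simulated data. The members, lists and motifs were chosen with earlier results of these data known. With 2 replicates of 1 group no test was possible, so values are given per replicate and beside all genes or loci. The genes named were the 5 members, neighbours with a start in their loci, up to 5 shared distal regions per locus by mean height, and, of the other Sox and gamma-delta lists, the 4 highest and those without a promoter peak; 1 gene of the gamma-delta list is not reported here and was left out of its counts. The named marker genes, the motif matches in printed regions and the group of regions near 2610307P16Rik were singled out after their values were seen.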

Additional observations from a re-analysis of the deposited data

How the results depend on the processing

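Of 128 alternative values, 102 moved by less than the spread between replicates (for counts, stayed within 1.5 times) and 26 did not. The share of distal regions in both replicates was instead judged by its 95% interval. Leaving out 1 of 2 replicates moves a mean by no more than their SD, by construction. Those values for promoter height and distal density therefore could not have counted as moved. The Sox4 promoter stood at 14.7 times the library median, at 9.48 with the smaller peak files and at 10.3 with equal numbers of peaks, as the library medians rose from 0.625 and 0.828 to 0.973 and 1.29 in the smaller files and to 1.38 in replicate 1 with equal numbers, and at 13.4 to 16.0 when either replicate was left out. Sox4 stayed highest in promoter height and distal density under every alternative. The order of the 5 genes by promoter height had 5 genes in place under the smaller files, equal numbers, the 1 kb window, deposited heights and percentiles, 3 with the 5′ end of the gene record alone, 3 with starts of coding transcripts alone, and 3 to 5 when a replicate was left out. The order by distal density had 3 in place with regions nearest to the member's own start, 3 with a flank of 500 kb (added after the data were seen) and 1 with the gene body alone. With the gene body alone, Sox4 had 52.1 distal regions per 100 kb against 11.9, but the gene has only 4795 bp, so that density rests on few regions. Leaving out a replicate gave 7.41 to 16.3 per 100 kb at Sox4 and kept 5 in place. The share of distal regions in both replicates was 35.4%, and 57.8% with equal numbers of peaks (33.0% and 54.3% over the genome). Footprints of the 5 loci averaged 464.5, 90.5 in gene bodies alone, and 313 to 616 without a replicate; those at starts averaged 26.5 and ran from 25 to 28. Other Sox genes with a promoter peak numbered 5, and 6 to 10 without a replicate; the gamma-delta list gave 7, also without either replicate, and 6 with the smaller files. The cause of the moves not explained by construction was not tested. No paired analysis was possible because there is only 1 group. Read depth is unknown, so a missing peak in replicate 2 does not show closed chromatin.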
